A study of Mus musculus with 6 samples.

Results

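Replication-dependent histone genes encode the bulk histones that package newly copied DNA. They were taken as all genes that carry a name starting with Hist1h, Hist2h, Hist3h or Hist4h. The array annotation uses current symbols, such as H2ac18 for Hist2h2aa1, so the older names were found among the RefSeq synonyms of each annotated gene. Of 45281 probes, 90 met the rule, and they stood for 60 of the 70 genes that carry such a name, out of 19057 genes with a probe. Among the 90 probes, 7 were for the linker histone H1, 24 for H2A, 20 for H2B, 18 for H3 and 21 for H4.

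The nucleosome is built from the core histones H2A, H2B, H3 and H4, and H1 binds the linker DNA where it enters and leaves. In dividing cells these genes are transcribed mainly in S phase, when DNA is copied, and their transcripts end in a stem-loop bound by SLBP instead of a poly(A) tail. Most of the genes lie side by side in clusters, called Hist1 to Hist4 in the older mouse names. In testis, some histones are replaced by germ cell types, and later by transition proteins and protamines. Kits that make cRNA for such arrays generally prime on poly(A), and the primer was not given in the sources used here. A difference in transcript level and a difference in the polyadenylated share of the transcripts therefore cannot be told apart.

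RNA from 3 samples of mouse spermatogonial stem cells (SSC, strain C57BL/6), germ cells of the testis that renew themselves, and from 3 samples of mouse embryonic stem cells (ESC, line R1/E), pluripotent cells of the early embryo, was measured on 1-colour bead arrays, 1 array a sample. Strain and cell type cannot be told apart, and isolation and culture were not given in the sources used here. Nothing states that replicates came from separate cultures or animals, so p-values reflect the spread between these arrays alone, and that spread could be technical. In such bulk RNA, fewer cells that carry a transcript and less of it per cell cannot be told apart.

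SSC arrays detected 16505 to 17211 probes and ESC arrays 15242 to 15613, at a detection p under 0.01. All 10 pluripotent cell markers were lower in SSC, with a summed linear intensity of 2293 to 2543 in SSC and 20032 to 20870 in ESC, and 9 of 11 markers of undifferentiated spermatogonia were higher, at 7408 to 7758 in SSC and 2442 to 2607 in ESC. Markers of several other testis cells also read higher in SSC. Of the measured Sertoli cell markers, 6 of 7 were higher (sum 2874 to 3118 in SSC, 204 to 223 in ESC), with Wt1 and Clu not measured. For fibroblasts and peritubular myoid cells 8 of 10 were higher (7304 to 8205 in SSC, 3091 to 3290 in ESC), with Postn not measured. Most of that ESC sum was Acta2, which was not called, at a mean log2 intensity of 11.27 in SSC and 11.49 in ESC. For differentiating spermatogonia and spermatocytes 8 of 9 were higher (4086 to 5014 in SSC, 735 to 838 in ESC), with Sycp3, Dmc1 and Ccna1 not measured. Leydig cell markers summed to 545 to 721 in SSC and 259 to 268 in ESC, and 3 of 4 were higher, with Star, Hsd3b1 and Hsd3b6 not measured. Macrophage and leukocyte markers summed to 140 to 157 in SSC and 88.6 to 96.0 in ESC, and 3 of 4 were higher, with Ptprc, Cd68, C1qa, C1qb and Adgre1 not measured. Endothelial markers summed to 383 to 390 in SSC and 1489 to 1640 in ESC, and 4 of 6 were lower, with Kdr not measured. The part of these other cells in the histone differences was not tested.

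Promoters from RefSeq's table for GRCm38.p6 are shown for 1 called member per histone type and direction, the one with the largest difference among those with an entry. H2bc21 and H3c7, with larger differences than H2bc12 and H3c3, had no entry. The sequences are shown as promoter regions of genes named below, and a link between their letters and the differences was not tested. Each window runs from 250 bases before to 50 bases after the annotated start, on the strand of the gene. Capitals mark 4 motifs known from histone promoters, searched on both strands: the TATA box (TATAAA), the CCAAT box (CCAAT), the core of the octamer bound by OCT1 (TTTGCAT) and the H1 box (AAACACA). Marked motifs did not overlap one another in these windows. H1f2 (chr13:23738557-23738856, plus strand) and H1f5 (chr13:21780576-21780875, minus strand) encode linker histones, and H1f2 was higher and H1f5 lower in SSC.
H1f2: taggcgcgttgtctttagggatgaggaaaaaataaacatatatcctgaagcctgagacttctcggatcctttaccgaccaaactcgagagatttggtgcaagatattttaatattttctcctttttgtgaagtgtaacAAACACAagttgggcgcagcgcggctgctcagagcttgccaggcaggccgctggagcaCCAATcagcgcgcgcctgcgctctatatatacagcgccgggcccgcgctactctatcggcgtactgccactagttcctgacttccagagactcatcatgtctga
H1f5: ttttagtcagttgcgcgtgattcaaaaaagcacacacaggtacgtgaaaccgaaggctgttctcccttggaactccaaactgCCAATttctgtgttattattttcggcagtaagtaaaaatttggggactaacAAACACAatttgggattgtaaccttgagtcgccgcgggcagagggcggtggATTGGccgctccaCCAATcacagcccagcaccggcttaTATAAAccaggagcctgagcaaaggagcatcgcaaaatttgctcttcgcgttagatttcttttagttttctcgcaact
H2ac18 (chr3:96245247-96245546, plus strand) and H2ac4 (chr13:23750838-23751137, plus strand) encode H2A, and H2ac18 was higher and H2ac4 lower in SSC.
H2ac18: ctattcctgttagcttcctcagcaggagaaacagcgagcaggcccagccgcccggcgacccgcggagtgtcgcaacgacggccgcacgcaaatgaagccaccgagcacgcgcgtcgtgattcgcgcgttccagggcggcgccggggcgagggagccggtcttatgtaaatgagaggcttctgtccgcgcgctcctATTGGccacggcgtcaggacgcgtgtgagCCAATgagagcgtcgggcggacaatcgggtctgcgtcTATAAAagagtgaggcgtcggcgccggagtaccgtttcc
H2ac4: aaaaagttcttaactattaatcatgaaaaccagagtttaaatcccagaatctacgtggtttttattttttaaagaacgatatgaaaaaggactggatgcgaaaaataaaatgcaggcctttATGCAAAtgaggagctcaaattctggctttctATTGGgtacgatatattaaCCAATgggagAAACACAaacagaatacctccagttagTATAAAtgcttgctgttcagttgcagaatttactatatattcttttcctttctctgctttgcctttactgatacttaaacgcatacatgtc
H2bc12 (chr13:22035571-22035870, plus strand), H3c3 (chr13:23745472-23745771, minus strand) and H4c4 (chr13:23581318-23581617, plus strand) encode H2B, H3 and H4, and each was lower in SSC.
H2bc12: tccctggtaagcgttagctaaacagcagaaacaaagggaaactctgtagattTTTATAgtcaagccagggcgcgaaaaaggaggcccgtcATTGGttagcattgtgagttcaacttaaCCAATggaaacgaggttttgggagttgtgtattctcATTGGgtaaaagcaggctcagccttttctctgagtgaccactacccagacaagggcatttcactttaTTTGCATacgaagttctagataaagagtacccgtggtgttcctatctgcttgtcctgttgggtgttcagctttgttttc
H3c3: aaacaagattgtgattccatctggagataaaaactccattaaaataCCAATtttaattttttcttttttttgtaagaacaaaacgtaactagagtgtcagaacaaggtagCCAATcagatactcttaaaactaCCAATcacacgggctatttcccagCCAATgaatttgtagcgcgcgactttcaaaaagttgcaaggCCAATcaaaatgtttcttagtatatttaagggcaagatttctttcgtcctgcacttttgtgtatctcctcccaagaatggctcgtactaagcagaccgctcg
H4c4: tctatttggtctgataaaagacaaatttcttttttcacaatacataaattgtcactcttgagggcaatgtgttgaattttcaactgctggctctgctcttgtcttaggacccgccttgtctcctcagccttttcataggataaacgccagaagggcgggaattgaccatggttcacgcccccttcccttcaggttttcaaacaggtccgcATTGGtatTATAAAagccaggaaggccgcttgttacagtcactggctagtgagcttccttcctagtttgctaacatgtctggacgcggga

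The letters differed by histone type. In all, 62 member genes had an entry, with 63 windows of 300 bases, also counting genes that have no probe. The TATA letters stood in 55.6% of the member windows, against 13.6% of all 32851 promoter windows in the table. CCAAT stood in 85.7% of member windows and 37.4% of all windows, and by type in all windows of H1, H2A, H2B and H3 genes but in 3 of 12 H4 windows. The octamer core stood in 7 of 18 H2A windows, 7 of 17 H2B windows and 1 of 12 H4 windows, against 4.63% of all windows, and in no H1 or H3 window. The H1 box stood in 5 of 6 H1 windows, 2 of 18 H2A windows and 2 of 17 H2B windows, against 7.18% of all windows, and in no H3 or H4 window. H1f2 and H1f5, which differed in opposite directions, both hold the H1 box, at bases -112 and -117 from the start. The marked TATA letters begin at bases -28 in H1f5, -32 in H4c4 and -41 in H2ac4. In H2ac18 they begin at base 12, after the annotated start, and in H2bc12 at -198 on the opposite strand. H3c3 holds 5 CCAAT boxes and no other of the 4 motifs. A match is a description of letters and not of binding.

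Most measured histone probes read lower in SSC. Of the 90 probes, 65 were detected on at least 3 of the 6 arrays and entered the test, and 25 did not. In SSC 43 of the 65 were lower and 7 higher at an adjusted p under 0.05 (limma, Benjamini-Hochberg), and 15 were not called. Over all 17435 probes tested, 37.5% were called lower, 36.1% higher and 73.6% in either direction. By fitted difference, at least 2-fold lower were 35 of the 65 histone probes, against 15.5% of all probes, and at least 2-fold higher were 4, against 15.8%. The groups did not overlap for 54 of the 65, against 75.3% of all probes. The median difference, SSC minus ESC on the scale of log2 intensity, was -1.08 over the 65 probes, with a range of -2.85 to 2.99, and -0.031 over all probes, whose quartiles were -0.65 and 0.64. Without background correction the median over the 65 probes was -0.42, with 44 lower and 10 higher. There H3c3 differed by -1.20, H4c4 by -0.62, H4c2 by -0.61, H2ac8 by -0.42, H4c11 by -1.04, H2ac4 by -0.996 and H1f5 by -0.34, each still called, while H3c7 differed by -2.08 and H2ac18 by 2.18.

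A probe could pass the detection filter through one group alone. Of the 65 probes, 6 were detected on every ESC array and no SSC array, and 1 on every SSC array and no ESC array. Among the 53 detected on all 6 arrays, 34 were lower, 5 higher and 14 not called, while 40.0% of all 12704 such probes were lower and 30.9% higher. Taking each gene by its brightest tested probe, 46 of the 60 genes were measured, of which 32 were lower, 3 higher and 11 not called. Of all 10024 genes measured this way, 36.5% were lower and 37.9% higher.

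**Figure D1:**
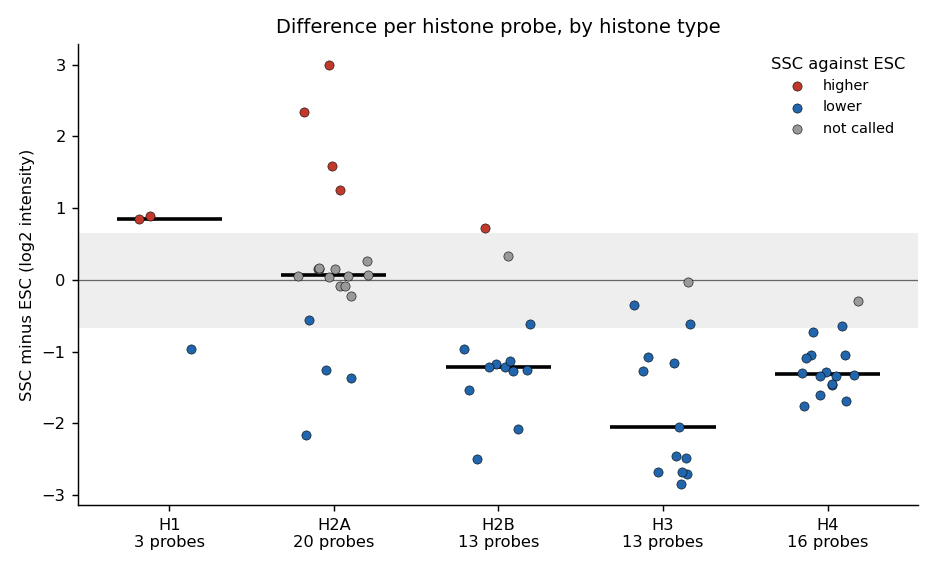
Difference in log2 intensity (SSC minus ESC) of each of the 65 tested histone probes, by histone type. Points are probes, black lines the medians of each type, and the grey band runs between the quartiles of all 17435 probes. H2B, H3 and H4 probes lie mostly below the band, while 12 H2A probes lie close to 0.

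H3 genes had the most negative median of the types. All 9 H3 genes with a probe were measured, 8 were lower and 1 was not called. By probe, 12 of 13 were lower, against 37.5% of all probes, and the median difference was -2.06. In the Hist1 cluster each of the 7 measured H3 genes was lower, with fitted differences of -2.71 to -1.08. In the Hist2 cluster H3c13 differed by -0.36 ± 0.13 (SE), adjusted p = 0.0228, and H3c14 was not called. H3c13 lost its call without ESC 2 (-0.30, limma adjusted p = 0.098) or without SSC 2 (-0.27, limma adjusted p = 0.094). Differences between histone types or clusters were not tested.

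In the Hist1 cluster, H3c7 (Hist1h3f) read 6.78, 6.87 and 7.13 in SSC 1, 2 and 3, against 9.57, 9.65 and 9.71 in ESC 1, 2 and 3, as normalised log2 intensity. All 3 SSC samples were below every ESC sample, with little spread in either group. The difference was -2.71 ± 0.13 (SE), adjusted p = 7.48e-10, or 6.56-fold lower in SSC. A further tested probe of H3c7 was detected on no SSC array and was at least 1.75-fold lower.

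H3c3 (Hist1h3c) read 4.96, 4.78 and 4.53 in SSC 1, 2 and 3, against 7.48, 7.50 and 7.35 in ESC 1, 2 and 3. The groups were far apart, but only 1 SSC array detected the probe, so the SSC values lie near background. The difference was -2.68 ± 0.13 (SE), adjusted p = 1.31e-09. H3c1 (Hist1h3a), which was detected on all 6 arrays, read 6.60, 6.28 and 6.66 in SSC 1, 2 and 3, against 9.20, 9.22 and 9.16 in ESC 1, 2 and 3. Its difference was -2.68 ± 0.13 (SE), adjusted p = 1.03e-09.

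H3c10 (Hist1h3h) had 3 tested probes, all lower, with differences of -1.08, -2.06 and -2.85. Its brightest probe, which stands for the gene, gave the smallest of the 3 differences, and read 9.77, 9.73 and 9.90 in SSC 1, 2 and 3, against 10.84, 10.94 and 10.84 in ESC 1, 2 and 3. Its probe with the largest difference read 5.75, 5.50 and 5.92 in SSC 1, 2 and 3, against 8.48, 8.69 and 8.56 in ESC 1, 2 and 3. Neither probe overlapped between groups, so the direction was shared and the size was not. H3c4, H3c6 and H3c8 were lower, at -2.49, -2.46 and -1.27, the last of them with no SSC array detecting it and a bound of at least 1.67-fold.

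Among H3 genes, H3c14 (Hist2h3c1) read 10.48, 10.15 and 10.63 in SSC 1, 2 and 3, against 10.40, 10.58 and 10.38 in ESC 1, 2 and 3. Its groups overlapped, and the difference was -0.04 ± 0.14 (SE), adjusted p = 0.827. A dimmer probe of H3c14 was lower, with a difference of -0.62 ± 0.13 (SE), adjusted p = 0.00104. The 2 probes thus fell on different sides of the threshold.

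H4 genes were lower in nearly every case measured. Of 11 measured H4 genes, 10 were lower, 1 was not called and none was higher. By probe, 15 of 16 were lower, against 37.5% of all probes, with a median difference of -1.31. All measured H4 genes lie in the Hist1 cluster. H4f16 (Hist4h4) and H4c14 (Hist2h4) were not measured, and of their 3 probes 1 was detected, on 1 ESC array.

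H4c4 (Hist1h4d) read 4.53, 4.33 and 4.93 in SSC 1, 2 and 3, against 6.06, 6.59 and 6.41 in ESC 1, 2 and 3. All SSC samples were below every ESC sample. Its difference was -1.75 ± 0.17 (SE), adjusted p = 9.87e-07. Only 1 SSC array detected H4c4. H4c2 (Hist1h4b) read 4.70, 4.57 and 4.82 in SSC 1, 2 and 3, against 6.17, 6.42 and 6.59 in ESC 1, 2 and 3. No SSC array detected H4c2, and it was at least 3.02-fold lower in SSC, with a difference of -1.70 ± 0.14 (SE), adjusted p = 1.37e-07.

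H4c11 (Hist1h4j) was detected on all 6 arrays and read 6.51, 6.38 and 6.69 in SSC 1, 2 and 3, against 8.02, 8.23 and 8.15 in ESC 1, 2 and 3. The groups did not overlap, and the difference was -1.61 ± 0.13 (SE), adjusted p = 1.09e-07. The brightest H4 probe, that of H4c1 (Hist1h4a), read 8.11, 7.62 and 8.17 in SSC 1, 2 and 3, against 9.27, 9.58 and 9.42 in ESC 1, 2 and 3, with a difference of -1.46 ± 0.15 (SE), adjusted p = 2.16e-06. H4c3 (Hist1h4c) was the H4 gene not called, with 5.20, 4.70 and 5.12 in SSC 1, 2 and 3, against 5.25, 5.51 and 5.15 in ESC 1, 2 and 3. Its groups overlapped, and the difference was -0.30 ± 0.15 (SE), adjusted p = 0.0955. Only 2 SSC arrays detected H4c3, and the lowest detected values on the ESC arrays were 4.97 to 5.03. The probe thus read near background in both groups, and the part of this in the missing call was not tested. The H2B gene H2bc3 had a lower ESC mean, 5.21 against 5.30 for H4c3, and was called lower.

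H2B genes were also mostly lower. Of 10 measured, 9 were lower and 1 was not called. By probe, 11 of 13 were lower, 1 higher and 1 not called, against 37.5% lower and 36.1% higher of all probes. The median difference was -1.21. In human cells, the counterparts of H2bc21, H2bc12, H2bc4 and the linker histone gene H1f2 are known to give polyadenylated transcripts as well as stem-loop ones.

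H2bc21 (Hist2h2be) read 6.72, 6.50 and 6.98 in SSC 1, 2 and 3, against 9.04, 9.33 and 9.31 in ESC 1, 2 and 3. Every SSC sample was below every ESC sample, and the difference was -2.50 ± 0.14 (SE), adjusted p = 6.01e-09. Its other probe went the opposite way and was the only case of a member gene called in both directions. That probe read 5.38, 5.35 and 5.11 in SSC 1, 2 and 3, against 4.50, 4.68 and 4.51 in ESC 1, 2 and 3. No ESC array detected it, and it was at least 1.21-fold higher in SSC, with a fitted difference of 0.72 ± 0.12 (SE), adjusted p = 1.66e-04.

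H2bc12 (Hist1h2bk) read 7.29, 7.01 and 7.09 in SSC 1, 2 and 3, against 9.21, 9.25 and 9.16 in ESC 1, 2 and 3. The difference was -2.08 ± 0.12 (SE), adjusted p = 5.89e-09, and its other probe was lower as well, at -1.18. H2bc9 (Hist1h2bh) read 7.48, 7.16 and 7.12 in SSC 1, 2 and 3, against 8.31, 8.78 and 8.49 in ESC 1, 2 and 3. Here too the groups did not overlap, and the difference was -1.27 ± 0.15 (SE), adjusted p = 5.30e-06.

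H2bc4 (Hist1h2bc) was the H2B gene not called. It read 7.44, 7.26 and 7.48 in SSC 1, 2 and 3, against 7.41, 7.21 and 6.58 in ESC 1, 2 and 3, so ESC 3 lay below the other samples and the groups overlapped. The difference was 0.33 ± 0.18 (SE), adjusted p = 0.124. Scaling on array medians, or leaving out ESC 1, made it higher in SSC, at 0.64 and 0.49. H2bc3 was lower by at least 1.32-fold and was detected on no SSC array.

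**Figure D2:**
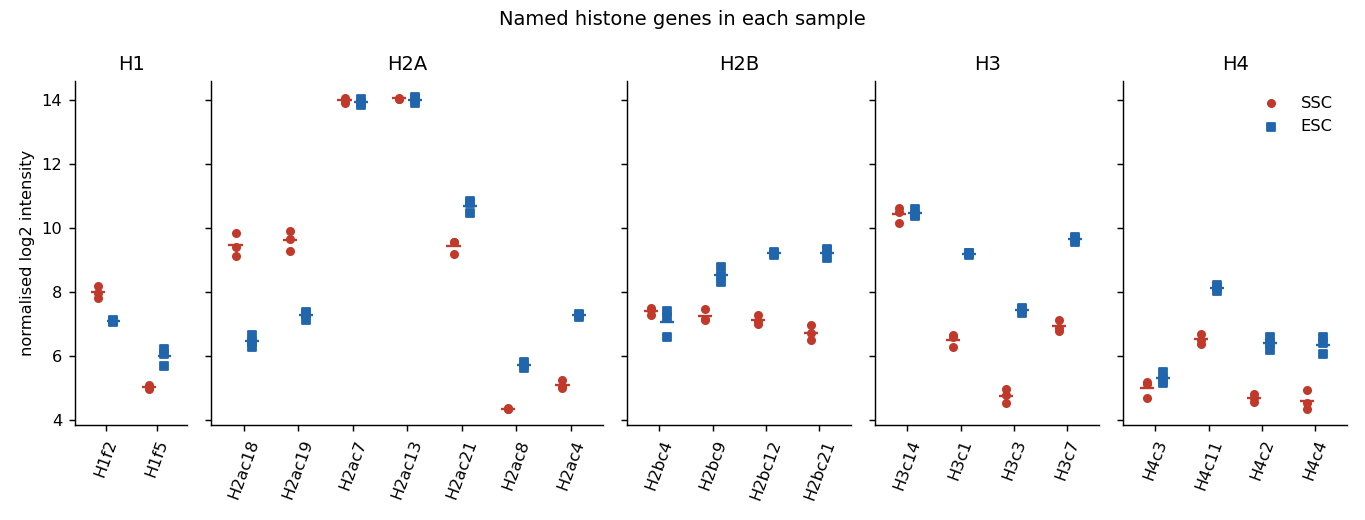
Normalised log2 intensity of the named histone genes in each sample, SSC as red circles and ESC as blue squares, with group means as lines. In the H3 and H4 panels the SSC points lie below the ESC points except for H3c14 and H4c3, while H2ac18 and H2ac19 have SSC points above ESC points. Levels of different genes come from different probes and are not comparable with each other.

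H2A genes did not share this direction after quantile normalization. Of 14 measured H2A genes, 2 were higher, 4 lower and 8 not called, against 37.9% higher and 36.5% lower of all genes. By probe, 4 of 20 were higher, 4 lower and 12 not called, against 36.1% higher and 37.5% lower of all probes. The median difference over the 20 H2A probes was 0.062, but it was -0.46 under scaling on array medians, where 4 were higher and 11 lower. Scaling on array medians moved the median of all probes to 0.18, and 59.5% of all calls were then higher in SSC, against 49.0% with quantile normalization. By cluster, 4 of 6 Hist2 H2A probes were higher, and none of 14 Hist1 H2A probes was.

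H2ac18 (Hist2h2aa1) had the largest positive difference of any member. It read 9.41, 9.13 and 9.83 in SSC 1, 2 and 3, against 6.29, 6.44 and 6.66 in ESC 1, 2 and 3. The groups lay far apart, and the difference was 2.99 ± 0.17 (SE), adjusted p = 4.92e-09, or 7.97-fold higher in SSC. A further probe of H2ac18, detected on 1 ESC array, was higher by 1.59 ± 0.16 (SE), adjusted p = 1.47e-06.

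H2ac19 (Hist2h2aa2) read 9.65, 9.28 and 9.89 in SSC 1, 2 and 3, against 7.14, 7.30 and 7.37 in ESC 1, 2 and 3, with a difference of 2.34 ± 0.15 (SE), adjusted p = 2.09e-08. These are near-identical neighbouring copies, and whether a probe of one also reads the other was not tested, since probe sequences were not used here. The third Hist2 H2A gene with a higher probe was H2ac20 (Hist2h2ac). That probe read 6.85, 6.67 and 7.30 in SSC 1, 2 and 3, against 5.63, 5.94 and 5.48 in ESC 1, 2 and 3. Its difference was 1.25 ± 0.17 (SE), adjusted p = 2.10e-05. A far brighter probe of H2ac20 was not called, at 0.17 ± 0.11 (SE), adjusted p = 0.185.

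Other H2A genes were lower. H2ac4 (Hist1h2ab) read 5.003, 5.06 and 5.26 in SSC 1, 2 and 3, against 7.28, 7.32 and 7.23 in ESC 1, 2 and 3, with a difference of -2.17 ± 0.12 (SE), adjusted p = 3.51e-09. H2ac21 (Hist2h2ab), which lies in the same cluster as H2ac18, read 9.56, 9.17 and 9.55 in SSC 1, 2 and 3, against 10.46, 10.84 and 10.77 in ESC 1, 2 and 3. Its difference, -1.26 ± 0.15 (SE), adjusted p = 4.84e-06, ran against that of H2ac18 and H2ac19. H2ac8 (Hist1h2ae) read 4.37, 4.35 and 4.34 in SSC 1, 2 and 3, against 5.61, 5.82 and 5.73 in ESC 1, 2 and 3. No SSC array detected H2ac8, and it was at least 1.89-fold lower, with a fitted difference of -1.37 ± 0.11 (SE), adjusted p = 2.29e-07. H2ac11 (Hist1h2ag) was lower, with a difference of -0.56 ± 0.13 (SE), adjusted p = 0.00216.

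The H2A probes that were not called were the brightest of all member probes. There were 12 of them, for 8 genes, with mean log2 intensities of 12.9 to 14.0, while the next member probe had 10.7. On single arrays they ranked between 1 and 156 among the 45281 probes. Deposited intensities, before normalization, ranged from 5542 to 17356 in SSC and from 9228 to 18993 in ESC. For each of these probes but that of H2ac24, every deposited SSC value was below every ESC value. H2ac15 read 9471, 9388 and 9084 in SSC 1, 2 and 3, against 13295, 14612 and 14055 in ESC 1, 2 and 3. H2ac24 read 17356, 17125 and 15283 in SSC 1, 2 and 3, against 16563, 17496 and 15217 in ESC 1, 2 and 3. The normalized values below no longer show this gap. H2ac13 (Hist1h2ai) read 14.03, 14.03 and 14.06 in SSC 1, 2 and 3, against 14.09, 14.02 and 13.89 in ESC 1, 2 and 3, and the difference was 0.04 ± 0.11 (SE), adjusted p = 0.768. H2ac7 (Hist1h2ad) read 13.97, 13.91 and 14.05 in SSC 1, 2 and 3, against 14.02, 13.91 and 13.83 in ESC 1, 2 and 3, and the difference was 0.06 ± 0.12 (SE), adjusted p = 0.659.

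At this brightness, a smaller share of all probes was called. Of the 111 tested probes at least as bright as the dimmest of these, 15 were higher, 25 lower and 71 not called. Thus 36.0% were called, with a median absolute difference of 0.21. The 111 include the 12 H2A probes themselves, none of them called, which lowers this share. The 12 H2A probes had differences of -0.23 to 0.26. Their calls depended on the normalization and on other settings. Under cyclic loess 5 were higher and 1 lower, and under scaling on array medians 7 were lower and none higher. Without background correction 3 were higher and 1 lower, with differences still of -0.23 to 0.26. A trended and robust prior gave 1 higher and 1 lower. In each of these settings the 8 dimmer H2A probes gave 4 higher and 4 lower. Whether the brightest probes were near the upper limit of the scanner was not tested.

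**Figure D3:**
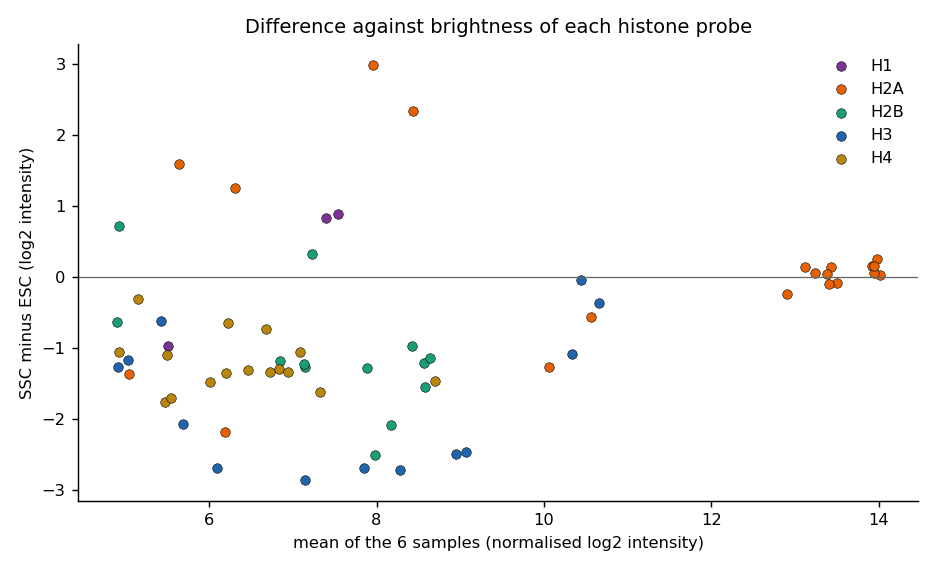
Difference in log2 intensity (SSC minus ESC) of each tested histone probe against its mean normalised log2 intensity over the 6 samples, coloured by histone type. The 12 brightest probes, all of H2A, stand apart on the right with differences of -0.23 to 0.26.

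Linker histone genes went both ways. Of 6 with a probe, 2 were measured. H1f2 (Hist1h1c) read 8.18, 7.98 and 7.80 in SSC 1, 2 and 3, against 7.06, 7.11 and 7.11 in ESC 1, 2 and 3, a difference of 0.89 ± 0.13 (SE), adjusted p = 2.92e-05, and its other probe was higher by 0.84. H1f5 (Hist1h1b) read 5.02, 5.09 and 4.99 in SSC 1, 2 and 3, against 6.06, 6.22 and 5.69 in ESC 1, 2 and 3, and the groups did not overlap. It differed by -0.96 ± 0.14 (SE), adjusted p = 4.23e-05. Both changes were under 2-fold. H1f3 and H1f4 were detected on no array, and H1f1 on 1 ESC array.

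The histone types made for the testis were not detected. H1f6 (Hist1h1t), the linker histone of spermatocytes, read 4.39, 4.39 and 4.58 in SSC 1, 2 and 3, against 4.32, 4.63 and 4.20 in ESC 1, 2 and 3. H2ac1 (Hist1h2aa) read 4.36, 4.37 and 4.56 in SSC 1, 2 and 3, against 4.22, 4.28 and 4.38 in ESC 1, 2 and 3, and H2bc1 (Hist1h2ba) read 4.38, 4.52 and 4.42 in SSC 1, 2 and 3, against 4.23, 4.36 and 4.23 in ESC 1, 2 and 3. These encode the testis types of H2A and H2B. No array detected any of the 3 probes, so these values give only an upper bound set by background. Members outside the Hist1 and Hist2 clusters, namely the 3 probes of Hist3 and the 2 of Hist4, were not tested either.

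Probes of 1 gene mostly moved together. Of 17 member genes with several tested probes, 10 had all of them called in 1 direction and 4 had none called. In 2 genes, H2ac20 and H3c14, only some were called, and in 1 gene, H2bc21, probes were called both ways. Histone genes of 1 type share long stretches of sequence, so probes of different members may read partly the same transcripts, which was not tested.

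Of 39 measured Hist1 genes, 29 were lower, 1 (H1f2) was higher and 9 were not called, with a median difference of -1.21. Of 7 measured Hist2 genes, 2 were higher, 3 lower and 2 not called. Over all 10024 genes measured, 37.9% were higher and 36.5% lower, and the Hist2 counts lie close to these shares. Some H2A and H2B genes are transcribed away from each other from a shared stretch of DNA. In 10 such pairs the starts lay 162 to 279 bases apart, and in 4 pairs both genes were measured. The H2B gene was lower in all 4 and the H2A gene in 1. H2bc12 differed by -2.08 beside -0.09 for H2ac12, H2bc15 by -1.21 beside -0.08 for H2ac15, H2bc7 by -1.21 beside 0.06 for H2ac7, and H2bc11 by -0.96 beside -0.56 for H2ac11. In 3 of these pairs the H2A gene is one of the very bright ones described above.

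**Figure D4:**
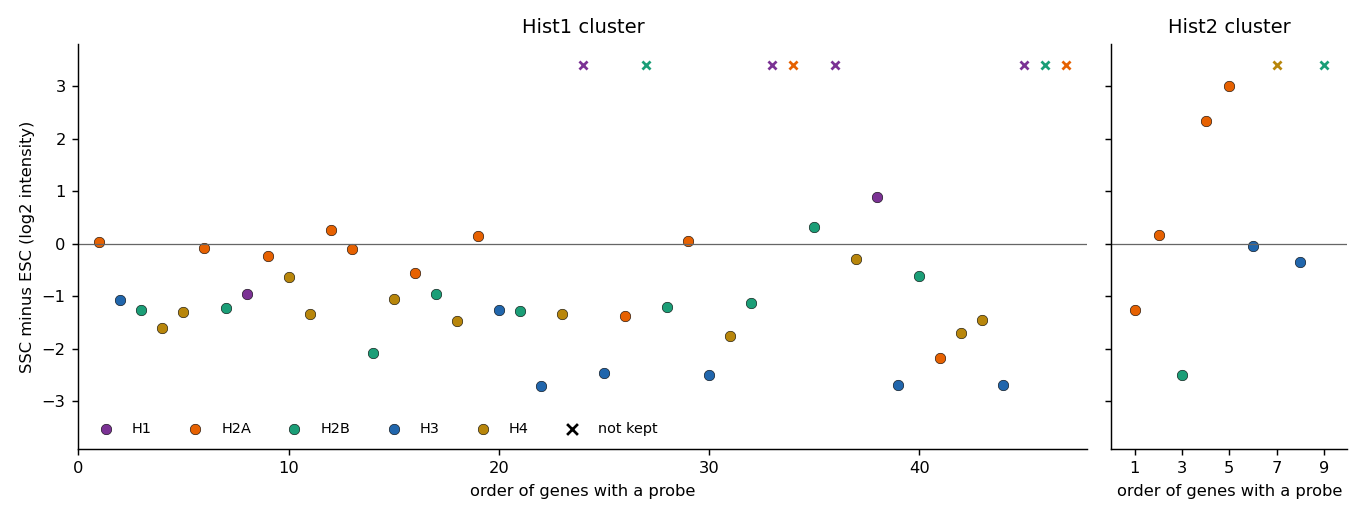
Difference in log2 intensity (SSC minus ESC) of member genes in the order they lie along the Hist1 and Hist2 clusters, coloured by histone type. Crosses at the top are genes with a probe that was not tested, placed there only to show their order. In Hist1 the H3 genes reach -2.71, and in Hist2 the H2A neighbours H2ac19 and H2ac18 stand at 2.34 and 2.99.

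The samples of each group were close for the members. The median SD within a group was 0.16 in SSC and 0.11 in ESC over the 65 probes, against 0.14 and 0.14 over all probes. Over the 43 lower probes, SSC 2 was the lowest SSC sample in 29, which it was in 32.5% of all probes. ESC 2 was the highest ESC sample in 30, against 26.8% of all probes, and ESC 1 the lowest in 27, against 36.4%. Leaving out each sample in turn left 42 or 43 probes lower and 7 or 8 higher.

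Genes that transcribe and process histone transcripts did not move as a block. Of 19 listed, 13 were measured, of which 2 were higher and 3 lower, while 8 were not called. Of all 10024 genes measured, 37.9% were higher and 36.5% lower. The median difference was -0.057, against 0.0036 over all of them. Zfp473, a zinc finger protein of the U7 particle that cuts histone transcripts, was lower, at -2.18 ± 0.14 (SE), adjusted p = 1.83e-08. Eri1, an exonuclease that binds the stem-loop, was lower, at -0.42, and Ncbp1, a cap binding protein, at -0.30. Hinfp, an activator of H4 genes, was higher by 0.88 and Lsm1, which acts in transcript decay, by 0.71. Npat, the S phase activator of histone genes, was not called, at 0.32 ± 0.20 (SE). Slbp was not measured, since its probe did not pass the detection filter. Scaling on array medians, or leaving out ESC 1, gave 4 higher. The lower count was 1 under that scaling, without ESC 2, without SSC 2 and at an adjusted p under 0.01.

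Somatic variants encoded outside these clusters moved in both directions. Of 11 listed, 9 were measured, and 2 were called higher and 5 lower, against 37.9% higher and 36.5% lower of all genes. Their median difference was -0.34. Without ESC 1, without SSC 3, under scaling on array medians and with no detection filter 1 was higher, and at an adjusted p under 0.01 there were 1 higher and 3 lower. H2ax, the variant phosphorylated at DNA breaks, was lower, at -1.10 ± 0.12 (SE), adjusted p = 2.56e-06. H2aj was lower, at -1.04, H2az1 at -0.62, Cenpa, the H3 variant of centromeres, at -0.40 and Macroh2a1 at -0.34, although another probe of Macroh2a1 gave 2.08. H3f3b, which encodes the replacement histone H3.3, was higher by 0.66 and the linker histone gene H1f10 by 0.42. H3f3a, the other gene for H3.3, was not called at 0.08, with another probe at 1.07. H1f0 was not measured. None of the 7 gamete variants and transition proteins with a probe, H1f7, H1f8, Hils1, Macroh2a3, Tnp1, Tnp2 and Prm1, passed the detection filter.

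Chaperones, which carry histones to DNA, were more often lower than higher. Of 25 listed, 20 were measured, and 4 were called higher and 11 lower, against 37.9% higher and 36.5% lower over all 10024 genes. Their median difference was -0.45. Chaf1b, a subunit of the chromatin assembly factor that acts behind the replication fork, was lower, at -2.02 ± 0.12 (SE), adjusted p = 6.06e-09. Set was lower, at -1.56, Mms22l at -1.47, with other probes up to -0.10, and Anp32e, which removes the variant H2A.Z, at -1.43. Higher were Supt16, a subunit of the chaperone FACT, by 1.58 with another probe at -0.86, Asf1b by 0.79, the import receptor gene Ipo4 by 0.64 and Nap1l4 by 0.53.

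S phase genes were mostly lower too. Of 29 listed, 24 were measured, and 2 were called higher and 18 lower, beside the same shares over all genes (37.9% and 36.5%). Their median difference was -0.95. Rpa1, which binds single-stranded DNA, was lower, at -3.20 ± 0.12 (SE), adjusted p = 7.10e-11, and Ccne1, the cyclin of the G1 to S transition, at -3.07. Rrm2, a subunit of the enzyme that makes deoxyribonucleotides, was lower, at -2.79, with another probe at 0.12, and Cdt1, which licenses origins, at -1.58. Ccne2 was higher by 0.96 and Cdk2 by 0.46, with other probes down to -0.12. Pcna, the sliding clamp of DNA polymerase, read 5.62, 5.27 and 4.83 in SSC 1, 2 and 3, against 6.69, 6.69 and 6.19 in ESC 1, 2 and 3, a difference of -1.29 ± 0.19 (SE). Its groups did not overlap. The share of cells in S phase was not measured, and its part in the histone differences was not tested.

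**Figure D5:**
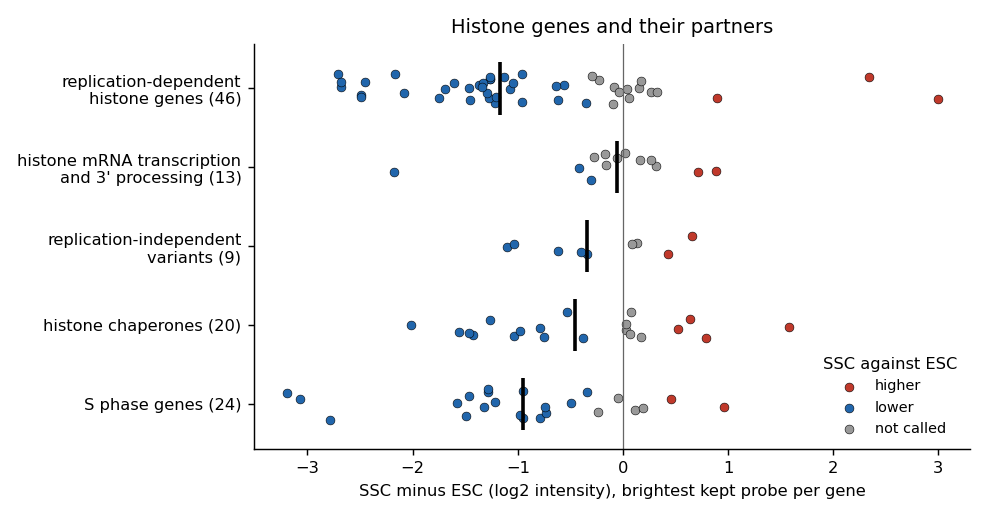
Difference in log2 intensity (SSC minus ESC) of each measured gene, by its brightest tested probe, for the 46 histone genes and 4 companion lists. Points are genes and black lines are medians, at -1.17 for the histone genes and -0.95 for the S phase genes.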

How the data were processed

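Members were found by matching the gene identifier of each probe, from the platform annotation, to RefSeq synonyms (GRCm38.p6). The members and all gene lists were chosen with earlier results of these data known. The authors deposited a table of unnormalized probe intensity on a linear scale and, for each of these values, a detection p-value, and a table of processed intensity values that share the same quantiles. The tool was GenomeStudio (no version named), per the submitters' processing notes. The steps behind the processed table were not given in the sources used here. All value columns were matched to a sample, and 0 were left over.

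The deposited intensity values were background corrected by normexp (background parameters estimated through the detection p-values, offset 16), quantile normalized and turned into log2 values (limma 3.58.1, R 4.3.3). Probes with a detection p under 0.01 on at least 3 of 6 arrays were fitted with lmFit and eBayes without covariates, on all 6 arrays, with Benjamini-Hochberg adjustment over all 17435 probes. Probes were called at an adjusted p under 0.05. The fit was tested on simulated data without the normalization step, so that test cannot speak to the normalization. The number of arrays, 3 a group, limits the precision.

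A gene is given by its tested probe with the highest mean. Values in every sample are given for up to 3 called genes of largest difference per histone type and direction, up to 2 uncalled genes nearest 0 per type, and the testis types, and for further probes and genes picked after their values were seen. Up to 4 genes per companion list and direction are named, with some key genes called or not. Some further genes whose probes disagree are named as well. Where no array of a group detected a probe, "at least N-fold" sets the mean of the other group against a floor: on each array, the probe's value or the lowest detected value, whichever is higher. Alternatives were other background corrections, normalizations, filters, thresholds and priors, the authors' table, a replicate block, the mean of all probes of a gene, and each sample left out in turn.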

Additional observations from a re-analysis of the deposited data

How the results depend on the processing

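The 43 lower histone probes numbered 42 to 49 under every setting tried but detection on all 6 arrays, which gave 34 of 53 tested, and a 2-fold minimum, which gave 35. Higher histone probes were 12 under cyclic loess and 4 with a 2-fold minimum, against 7, and that minimum left 5446 of the 12839 calls over all probes. Leaving out each sample in turn gave 7 to 8 higher and 42 to 43 lower histone probes, and 12071 to 12581 calls over all probes. Of the 35 member genes called by their brightest probe, 0 changed sign under any setting in which they were tested. H3c13 lost its call without ESC 2, without SSC 2 and at an adjusted p under 0.01, H4c17 under scaling on array medians, and these and H1f2, H1f5, H2ac11, H2bc3 and H2bc11 with a 2-fold minimum. Among the named genes, sign changes were limited to uncalled ones. Under scaling on array medians H2ac13 went to -0.22 and H2ac7 to -0.24, and under cyclic loess H3c14 to 0.057. With single samples left out, H2ac13 ranged from -0.019 (without ESC 3) to 0.079. H3c14 then ranged from -0.14 to 0.10 (without SSC 2, and 0.025 without ESC 2). Scaling on array medians made all 12 brightest H2A probes negative, at -0.84 to -0.038, so further uncalled H2A genes changed sign there. The causes were not tested. The size of the differences depended on the background correction: the median over the 65 histone probes was -0.42 without it, -0.42 from the authors' table and -0.63 with an offset of 50, against -1.08. Whether replicate numbers pair samples could not be decided from the values. Deviations from the group means correlated at -0.14, -0.07 and 0.03 for same-numbered samples and at -0.12 to 0.17 for the others. Low correlations of this kind cannot show that samples were unpaired. With the replicate block 7 histone probes were higher, 43 lower and 12665 probes called in all. Dim probes near background limit the fold that can be measured, and the brightest H2A probes change call with the normalization and other settings.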
